A study of Rattus norvegicus with 8 samples.

Results

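The zinc finger protein genes of this report were the features of a rat gene table whose name begins with Zfp or Znf followed by a digit, plus Giot1, with at least 50 total exon reads in 2 libraries. They numbered 196 of the 32258 features in the table, and all 196 were among the 12407 genes tested. Another 95 features carried such a name but stayed below the read minimum, 9 of them with no exon read in any library. Zfp51, Zfp956 and Zfp438 lay just inside the minimum, with 50, 51 and 52 reads in their second-highest library. Zfp580, Zfp446 and Zfp324 lay just outside, with 47, 46 and 46 reads. At least 50 reads in all 8 libraries were found for 133 of the 196. The other members could enter through 1 group in which they were high, so the counts of the 4 comparisons with many calls, and those by exon length, level and neighbourhood, are given over the 133 too, beside the 9143 of all tested genes with 50 reads in all 8 libraries. Counts of named lists and of runs on a chromosome hold members that passed through 1 group.

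Gene expression was measured by RNA sequencing in cultures of H9C2, an embryonic rat heart line of cardiomyoblasts. Every culture received a pDC316 vector for 2 days, and YFP was part of every construct. S280D cells carried YFP fused to the nuclear receptor PPARα with aspartate at serine 280, a phosphorylation mimic, and S280A cells carried the receptor with alanine there, which cannot be phosphorylated. WT cells carried the unmutated receptor fused to YFP, and YFP cells carried YFP with no receptor. Each of the 4 groups had 2 libraries (n = 2), all from 1 cell line, and the labels do not say whether the 2 came from separate cultures, so the p-values measure the spread between these samples.

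Most proteins with these names hold C2H2 fingers, small folds in which cysteines and histidines bind a zinc ion and which read DNA in tandem arrays. Many also carry a KRAB domain, which recruits the corepressor TRIM28 and, through it, histone methylation and heterochromatin proteins. KRAB zinc finger genes lie in clusters on mammalian chromosomes and are known for silencing retroelements. A few members, such as Zfp36 and Zfp36l1, have CCCH fingers that bind RNA instead. PPARα with its partner RXR binds a direct repeat of AGGTCA with a base between the copies, and switches on the machinery of fatty acid oxidation.

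The promoter sequences of 4 members are shown because these genes carry the main patterns. Giot1 had among the largest increases, Zfp51 and Zfp677 are neighbours on chromosome 1 that were both called higher in S280D than in S280A cells, and Zfp385a changed in the other direction. Each sequence is the RefSeq window from 250 bases before to 50 after the gene start in the GRCr8 build, written on the strand of the gene. Capitals mark AGGTCA or its reverse complement TGACCT. The windows are chr7:10886916-10887215 on the minus strand for Giot1, chr1:69886884-69887183 on the plus strand for Zfp51, chr1:69809364-69809663 on the plus strand for Zfp677 and chr7:136353968-136354267 on the minus strand for Zfp385a.
Giot1: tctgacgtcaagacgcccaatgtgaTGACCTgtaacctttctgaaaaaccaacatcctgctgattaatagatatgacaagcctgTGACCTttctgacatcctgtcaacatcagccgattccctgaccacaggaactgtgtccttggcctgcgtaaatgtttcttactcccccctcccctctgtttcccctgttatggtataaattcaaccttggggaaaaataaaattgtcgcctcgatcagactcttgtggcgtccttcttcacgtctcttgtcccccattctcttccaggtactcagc
Zfp51: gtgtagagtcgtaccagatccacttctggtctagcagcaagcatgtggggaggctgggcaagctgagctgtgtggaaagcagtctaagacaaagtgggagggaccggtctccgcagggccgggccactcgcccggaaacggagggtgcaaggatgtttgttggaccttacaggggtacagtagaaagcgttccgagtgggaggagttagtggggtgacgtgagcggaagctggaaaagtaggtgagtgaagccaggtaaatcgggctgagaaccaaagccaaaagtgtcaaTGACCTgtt
Zfp677: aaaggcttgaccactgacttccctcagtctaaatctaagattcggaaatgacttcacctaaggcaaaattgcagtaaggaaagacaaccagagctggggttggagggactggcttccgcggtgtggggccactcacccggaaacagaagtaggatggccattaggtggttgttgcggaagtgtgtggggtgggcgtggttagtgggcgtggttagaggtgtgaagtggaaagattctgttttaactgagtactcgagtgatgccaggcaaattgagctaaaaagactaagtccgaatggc
Zfp385a: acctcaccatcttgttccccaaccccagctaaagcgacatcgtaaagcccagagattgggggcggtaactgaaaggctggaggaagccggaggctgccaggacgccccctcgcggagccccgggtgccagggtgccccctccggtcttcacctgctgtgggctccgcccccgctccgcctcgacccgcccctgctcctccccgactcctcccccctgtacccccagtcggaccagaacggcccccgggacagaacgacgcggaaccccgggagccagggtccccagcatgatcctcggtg
The Giot1 window holds 2 copies of the half-site, both as TGACCT, Zfp51 holds 1, and Zfp677 and Zfp385a hold none. A promoter sequence was matched for 157 of the 196 members. Of these 157 windows 15 held the half-site on either strand (9.55%), against 11.3% of the 9018 tested genes with a window and 16.2% of all 33469 RefSeq promoters. The direct repeat AGGTCANAGGTCA, on either strand, was in 0 of the 157 and in 18 of the 33469 promoters (0.0538%). Its copies are also counted as half-sites. The half-site was in 4 of 50 windows of members called higher in S280D than in YFP, and in 11 of 100 windows of members not called there. GC content was 47.3% in the Giot1 window, 55.7% in Zfp51, 50% in Zfp677 and 69.3% in Zfp385a. The Zfp51 and Zfp677 windows shared no run of bases longer than 9, and 3 of that length. GGGCCACTC was in 113 of the 33469 promoters on either strand (0.338%), CCCGGAAAC in 224 (0.669%) and GTTAGTGGG in 54 (0.161%).

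Among the zinc finger genes called, more were higher than lower in WT or S280D cells against YFP cells. More were lower than higher in S280A cells against WT cells. The calls kept these directions over the 133 members with enough reads in every library, but their fold changes were nearly evenly split. Of the 133, 73 were positive in WT against YFP, 71 in S280D against YFP and 62 in S280A against WT. The calls in WT against YFP and S280A against WT also depended on lane and on single libraries, as given below. Exon reads were tested with edgeR's quasi-likelihood test, fitted to all genes and all 8 libraries, with a Benjamini-Hochberg adjusted p under 0.05 as the threshold for a call. All counts of members called in the next paragraphs are from that fit, and fold changes are log2 values with their standard error. CPM is a gene's exon read count relative to the exon reads of its library after TMM scaling.

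**Figure D1:**
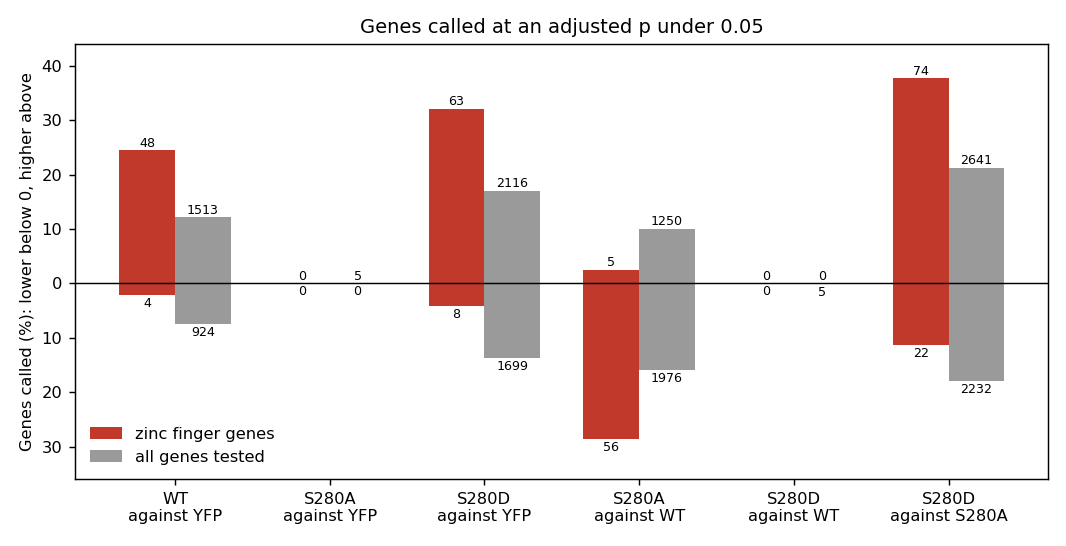
Percentage of genes called higher (above 0) or lower (below 0) in each comparison, where a call is an edgeR adjusted p under 0.05, with the number of genes at each bar. Red bars stand for the 196 zinc finger genes and grey bars for all 12407 genes tested, and the red bars exceed the grey ones on the upper side in WT against YFP, S280D against YFP and S280D against S280A and on the lower side in S280A against WT.

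In WT against YFP cells 48 zinc finger genes rose and 4 fell. Over all genes tested 12.2% were called higher and 7.45% lower, and among the members 24.5% were higher and 2.04% lower. The median log2 fold change was 0.20 over the members and -0.01 over all genes tested. Among the 133 members with 50 reads in every library, 28 rose and 4 fell (21.1% and 3.01%), against 13.8% and 9.56% of the 9143 genes, with medians of 0.07 and -0.04. The WT libraries were both read in lane 2 and the YFP libraries both in lane 1, per the column headers, so lane and construct cannot be told apart in this pair. With lane as a covariate, which rests on the other 2 groups, 0 members were called in WT against YFP, and of all genes tested 8 were called higher and 1 lower. All 48 members called higher kept a positive fold change in that fit, which used the same libraries as the calls. The count also rested on single libraries, with 4 members called when WT replicate 1 was left out, 34 when WT replicate 2 was and 17 when YFP replicate 1 was.

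In S280D against YFP cells 63 zinc finger genes rose and 8 fell. Over all genes tested 17.1% were called higher and 13.7% lower, against 32.1% and 4.08% of the members. Members had a median log2 fold change of 0.31, against -0.02 over all genes. Of the 133 members with 50 reads in every library, 36 rose and 8 fell (27.1% and 6.02%), against 18.4% and 17.8% of the 9143 genes, with medians of 0.06 and -0.08. With lane as a covariate 52 members were called higher and 1 lower (26.5% and 0.510%), against 10.3% and 3.02% of all genes tested. Within lane 1, where 1 S280D library stands against both YFP libraries, the median difference of the members was 0.31 on a log2(CPM + 0.5) scale. Without S280D replicate 1 there were 35 members called, and without YFP replicate 1 there were 40.

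No member was called between S280A and YFP cells. Of the 12407 genes, 0.0403% were called higher and 0% lower by edgeR. At an unadjusted p under 0.05 there were 17 members (8.67%), against 11.6% of all genes tested. DESeq2 called 1 member higher and 0 lower, and 73 of all genes higher and 27 lower. The median log2 fold change of the members was 0.01, and their fold changes ran from -1.09 to 1.28.

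Set against WT cells, S280A cells had 5 zinc finger genes higher and 56 lower. Over all genes tested 10.1% were called higher and 15.9% lower, and the members' shares were 2.55% and 28.6%. Members had a median log2 fold change of -0.24, against 0.01 over all genes. Of the 133 members with 50 reads in every library, 5 rose and 36 fell (3.76% and 27.1%), against 13.2% and 18.0% of the 9143 genes, with medians of -0.07 and 0.06. With lane as a covariate 1 member was called higher and 27 lower (0.510% and 13.8%), and the calls over all genes were one-sided there too, with 0.951% higher and 7.05% lower. The count rests on single libraries, since 0 members were called when S280A replicate 2 was left out, 0 when WT replicate 1 was and 30 when WT replicate 2 was. S280A replicate 2 is also the smallest library.

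No member was called between S280D and WT cells either. edgeR called 0% of all genes higher and 0.0403% lower there. At an unadjusted p under 0.05 there were 9 members (4.59%), against 4.88% of all genes tested. DESeq2 called 0 members, and 8 of all genes higher and 32 lower. The median log2 fold change of the members was 0.07, with a range of -0.67 to 1.12.

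The comparison of the 2 mutants had the most calls. In S280D against S280A cells 74 zinc finger genes rose and 22 fell. Over all genes 21.3% were called higher and 18% lower, against 37.8% and 11.2% of the members. The median log2 fold change was 0.36 over the members and -0.01 over all genes. Of the 133 members with 50 reads in every library, 42 rose and 20 fell (31.6% and 15.0%), against 23.0% and 23.4% of the 9143 genes, with medians of 0.04 and -0.09. Each lane holds 1 library of each mutant. The median difference of the members was 0.49 in lane 1 and 0.19 in lane 2 on the log2(CPM + 0.5) scale, and over all genes tested it was -0.02 and -0.01. The 74 members called higher were positive in both lanes and the 22 called lower were negative in both. Those members were called from these same libraries, so the shared sign was nearly fixed by the selection and is no separate evidence. Without S280D replicate 1 there were 34 calls, and without S280A replicate 2 there were 33.

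Comparisons that share no library can be set side by side. Of the 48 members higher in WT than in YFP, 45 were also higher in S280D than in S280A, which is 93.8% of the first list and 60.8% of the second. Over all genes tested these shares were 83.5% and 47.8%. Of the 63 members higher in S280D than in YFP, 45 were lower in S280A than in WT, or 71.4% of the first list and 80.4% of the second. Over all genes the shares were 69.2% and 74.1%, so the members stood close to the background in this pair. Over the 133 members 27 calls were shared by lists of 28 and 42 in the first pair (96.4% and 64.3%). In the second pair 29 were shared by lists of 36 each (80.6% of each). Over all genes with enough reads in every library the shares were 84.8% and 50.7% in the first pair. They were 73.9% and 75.4% in the second, so the sharing was high among all genes too.

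Summed over the 196 members, the level was 4603 and 4206 CPM in S280D cells, 3722 and 3494 CPM in S280A cells, 4246 and 4110 CPM in WT cells, and 3397 and 3602 CPM in YFP cells. The S280D and WT libraries did not overlap with the S280A and YFP libraries. By group mean, 97 members were highest in S280D, 46 in S280A, 21 in WT and 32 in YFP. The lowest mean was in S280D for 41 members, in S280A for 66, in WT for 26 and in YFP for 63. The median member had 11.8 CPM in S280D, 9.33 in S280A, 11.2 in WT and 9.82 in YFP cells. All of these sums, counts and medians include members that reached the read minimum through the group in which they were high, which can favour that group. They were not repeated over the members with enough reads in every library or over all genes tested.

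Giot1, first described in the rat ovary as a gonadotropin-inducible KRAB repressor, is 1 of 2 members not named Zfp, the other being Znf740. The table places it at chr7:13104480-13108723 in Rnor_6.0. Its level was 5.44 and 5.05 CPM in S280D cells, 1.83 and 0.966 CPM in S280A cells, 3.30 and 2.98 CPM in WT cells, and 0.703 and 0.715 CPM in YFP cells. Each S280D and WT library lay above each S280A and YFP library, and S280D lay above WT in both libraries. The log2 fold change was 2.14 ± 0.37 in WT against YFP (adjusted p = 0.00568), 2.88 ± 0.36 in S280D against YFP (0.000754) and 1.89 ± 0.34 in S280D against S280A (0.00284). S280A against WT gave -1.15 ± 0.35 (adjusted p = 0.035). S280D against WT gave 0.74 ± 0.30 (0.948), which did not pass. Reads unique to the gene were 66.1% of its exon reads, so its level is uncertain. On unique reads the increase in S280D against YFP was 2.90 (adjusted p = 0.000424), while S280A against WT no longer passed (-0.91, 0.119).

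**Figure D2:**
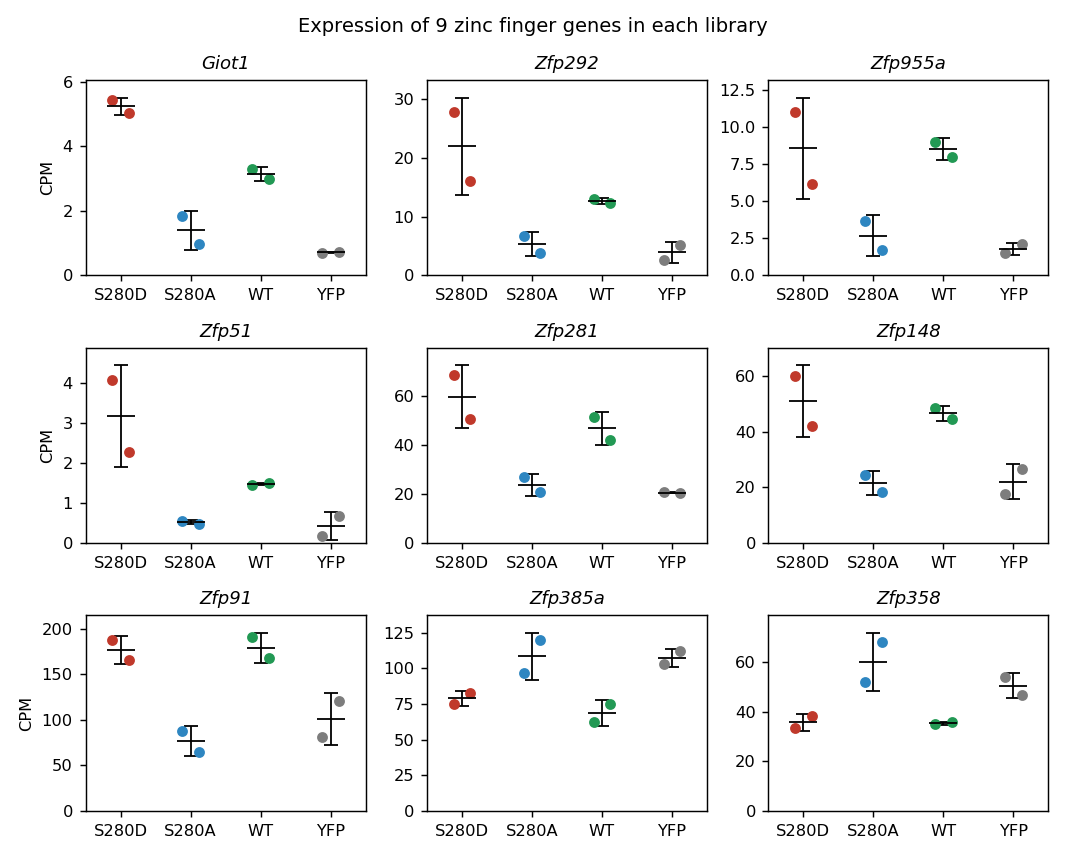
CPM of 9 zinc finger genes on linear axes that start at 0, with S280D, S280A, WT and YFP from left to right. Points are the 2 libraries of a group, the wide dash is their mean and the bars are the SD. Giot1 to Zfp91 lie higher in S280D and WT than in S280A and YFP, and Zfp385a and Zfp358 lie lower.

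Among the largest increases, Zfp955a had 11 and 6.19 CPM in S280D cells, 3.65 and 1.69 CPM in S280A cells, 9.05 and 7.99 CPM in WT cells, and 1.52 and 2.09 CPM in YFP cells. All WT and S280D libraries stood above both YFP libraries, with log2 fold changes of 2.23 ± 0.38 in WT against YFP (adjusted p = 0.00536) and 2.25 ± 0.37 in S280D against YFP (0.00225). Zfp292 encodes a very large protein whose rat form is known as a binder of the growth hormone promoter. It had 27.8 and 16.1 CPM in S280D cells, 6.74 and 3.86 CPM in S280A cells, 13 and 12.3 CPM in WT cells, and 2.58 and 5.21 CPM in YFP cells. S280D exceeded YFP by 2.49 ± 0.35 (adjusted p = 0.00122) and S280A by 2.05 ± 0.35 (0.00243) on the log2 scale. The 2 S280D libraries of Zfp292 differ more from each other than the 2 WT libraries do. Zfp367 had 7.03 and 5.65 CPM in S280D cells, 2.04 and 0.966 in S280A cells, 5.90 and 5.60 in WT cells, and 1.70 and 2.50 in YFP cells. It had the lowest fold change of the members in S280A against WT, -1.91 ± 0.35 (adjusted p = 0.00819).

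Members with a known role, in transcription or elsewhere, were read from a list of 37 genes, of which 32 were tested. In WT against YFP 8 of the 32 rose and 1 fell, in S280D against YFP 9 rose and 2 fell, in S280A against WT 3 rose and 10 fell, and in S280D against S280A 11 rose and 6 fell. The shares of 25% and 28.1% higher against YFP are near those of all members, 24.5% and 32.1%. Over all genes tested they were 12.2% and 17.1%. In S280A against WT 9.375% rose and 31.25% fell, against 10.1% and 15.9% of all genes. In S280D against S280A 34.4% rose and 18.75% fell, against 21.3% and 18% of all genes. In the order of the comparisons the median log2 fold changes were 0.12, 0.32, -0.17 and 0.34. Of the 29 with 50 reads in every library, 9 rose and 6 fell in S280D against S280A (31.0% and 20.7%). Among the 9143 genes with such reads 23.0% rose and 23.4% fell. Zfp281, a regulator of the pluripotency network that binds GC-rich promoters, had 68.8 and 50.6 CPM in S280D cells, 26.9 and 20.7 CPM in S280A cells, 51.6 and 42.1 CPM in WT cells, and 20.8 and 20.4 CPM in YFP cells. Its increase in S280D against YFP was 1.54 ± 0.18 (adjusted p = 0.000754). Zfp148, another GC-box binder, had 60.1 and 41.9 CPM in S280D cells, 24.6 and 18.4 CPM in S280A cells, 48.5 and 44.6 CPM in WT cells, and 17.8 and 26.5 CPM in YFP cells. It rose by 1.21 ± 0.22 in S280D against YFP (adjusted p = 0.0036). In both genes the S280A and YFP libraries overlapped, and the S280D and WT libraries lay above them.

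Zfp638, a nuclear RNA-binding protein known as a cofactor in adipocyte differentiation, had 65.1 and 40.2 CPM in S280D cells, 22.3 and 14.5 in S280A cells, 41.0 and 32.2 in WT cells, and 14.5 and 20.9 in YFP cells. It rose in S280D against S280A by 1.52 ± 0.27 (adjusted p = 0.00284) and fell in S280A against WT by 0.99 (0.0246). Zfp462 and Zfp644 are partners of the histone methyltransferases encoded by Ehmt1 and Ehmt2. Zfp644 rose in S280D against S280A by 1.19 ± 0.20 (adjusted p = 0.00223), and Zfp462 by 0.78 ± 0.15 (0.00337). Zfp462 has 9281 bases of exon and was sensitive to length. With an exon length offset its value in S280D against S280A was 0.24 (adjusted p = 0.138), whereas Zfp644 kept 0.80 (0.00457). Zfp143, which activates promoters of small RNA and housekeeping genes, rose in S280D against YFP by 0.56 ± 0.17 (adjusted p = 0.0282), but with the exon length offset described below the value was 0.41 (0.0818).

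Per kilobase of exon the members with the highest levels were Zfp259 at 53.0 CPM per kb, Zfp385a at 34.9, Zfp207 at 32.0, Zfp277 at 30.5, Zfp36 at 29.8 and Zfp91 at 27.3. They did not move together. Zfp91, an E3 ubiquitin ligase of NF-κB signalling, had 188 and 166 CPM in S280D cells, 88.2 and 65.0 CPM in S280A cells, 190 and 167 CPM in WT cells, and 80.8 and 121 CPM in YFP cells. It rose by 1.21 ± 0.19 in S280D against S280A (adjusted p = 0.00205). Zfp277 rose there by 0.65 ± 0.14 (0.00613). Zfp207, a spindle protein, had a log2 fold change of 0.34 ± 0.15 (adjusted p = 0.0912). Zfp259, also called ZPR1 and known to bind translation elongation factor, had 139 and 141 CPM in S280D cells, 190 and 196 CPM in S280A cells, 138 and 155 CPM in WT cells, and 149 and 120 CPM in YFP cells. It was highest in both S280A libraries, with a log2 fold change of 0.40 ± 0.13 in S280A against WT (adjusted p = 0.042) and -0.47 ± 0.13 in S280D against S280A (0.0155). Zfp36, tristetraprolin, which drives decay of mRNAs with AU-rich elements, fell in S280D against S280A by 0.46 (adjusted p = 0.0304). Its relative Zfp36l1 rose there by 0.49 ± 0.15 (0.0241), but with the exon length offset that value was 0.35 (0.0614).

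Few members fell with WT or S280D receptor. Zfp385a, a p53 cofactor and mRNA-binding protein, had 75.0 and 82.5 CPM in S280D cells, 96.8 and 120 CPM in S280A cells, 62.4 and 74.8 CPM in WT cells, and 103 and 112 CPM in YFP cells. It fell in WT against YFP by 0.65 (SE 0.14, adjusted p = 0.013) and was higher in S280A than in WT by 0.66 ± 0.14 (0.0114). Zfp358 had 33.4 and 38.3 CPM in S280D cells, 52.0 and 68.4 CPM in S280A cells, 35.0 and 35.9 CPM in WT cells, and 54.2 and 47.0 CPM in YFP cells. Every S280D and WT library of Zfp358 lay below every S280A and YFP library. It fell in S280D against S280A by 0.75 (SE 0.15, adjusted p = 0.00485). Zfp703, a corepressor linked to oestrogen signalling in breast cancer, fell in S280D against YFP by 0.72 (adjusted p = 0.0101). Zfp777 and Zfp316 were the remaining members called lower in WT against YFP, at -0.46 ± 0.13 (adjusted p = 0.0335) and -0.75 ± 0.21 (0.0311). The largest decreases in S280D against S280A were Zfp956 at -1.03 ± 0.36 (adjusted p = 0.0405) and Zfp691 at -1.03 ± 0.28 (0.015).

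Several members with well-known roles passed in none of the 6 comparisons. Zfp57, which guards imprinted methylation, had 16.1 and 16.1 CPM in S280D cells, 14 and 16.2 CPM in S280A cells, 13.8 and 15.1 CPM in WT cells, and 16 and 20.1 CPM in YFP cells. Zfp410, an activator of the chromatin remodeller gene Chd4, had 45.3 and 48.7 CPM in S280D cells, 48.9 and 43.8 CPM in S280A cells, 48.1 and 48.3 CPM in WT cells, and 44.9 and 43.9 CPM in YFP cells. The S280A libraries overlapped with those of the other 3 groups for Zfp410, and with S280D, WT and YFP for Zfp57. Zfp746, a repressor of the PGC-1α gene, had log2 fold changes of -0.16 ± 0.15 in S280D against YFP (adjusted p = 0.443) and -0.01 ± 0.15 in S280D against S280A (0.967).

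The partners through which KRAB zinc fingers act were read from a list of 30 genes, of which 25 were tested. In S280D against S280A 7 rose and 6 fell, with a median log2 fold change of 0.02, and in S280D against YFP 5 rose and 3 fell, with a median of -0.08. In WT against YFP 4 rose and 2 fell, and in S280A against WT 2 rose and 6 fell. The shares of 28% higher and 24% lower in S280D against S280A, and of 20% and 12% in S280D against YFP, stand near those of all genes (21.3% and 18%; 17.1% and 13.7%). Trim28, the corepressor that binds the KRAB domain, had 194 and 235 CPM in S280D cells, 288 and 386 CPM in S280A cells, 225 and 237 CPM in WT cells, and 310 and 322 CPM in YFP cells. It fell in S280D against S280A by 0.65 (SE 0.15, adjusted p = 0.00742), while most of the zinc finger genes called there rose. Fam208a, which encodes the TASOR subunit of the HUSH silencing complex, had 18.1 and 11 CPM in S280D cells, 5.27 and 3.78 CPM in S280A cells, 12.2 and 11 CPM in WT cells, and 3.51 and 3.42 CPM in YFP cells. It rose by 2.08 ± 0.26 in S280D against YFP (adjusted p = 0.000833). Mphosph8, another HUSH subunit, rose in S280D against S280A by 2.76 ± 0.40 (adjusted p = 0.00174), and Morc3 by 1.53 ± 0.21 (0.00166). Setdb1, the histone methyltransferase recruited by TRIM28, had a value there of -0.13 ± 0.15 (adjusted p = 0.538).

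Zinc finger genes of 1 stretch of chromosome 1 were higher in S280D than in S280A and YFP cells. Runs of features with such names whose starts lie within 500 kb of the next were formed after the values had been seen, so no test was made of them, and 8 runs held at least 4 members. The run at chr1:60884760-61740311 (Rnor_6.0) holds 7 named features, of which Zfp160, Zfp677, Zfp53, Zfp51 and Zfp229 are members. Zfp53 and Zfp51 reached 50 reads in the 2 S280D libraries only, and Zfp229 in these and 1 WT library. Zfp677 reached 50 reads in the S280D and WT libraries only. Membership of these genes thus depends on the groups where they are high, and Zfp160 alone has 50 reads in all 8 libraries. All 5 were called higher in S280D against YFP and in S280D against S280A, and 3 in WT against YFP. The 5 log2 fold changes ran from 1.39 to 2.60 in S280D against S280A, with a median of 1.83. In S280A against WT 2 of the 5 were called lower. Zfp160 had 42.4 and 24.8 CPM in S280D cells, 11.8 and 7.09 CPM in S280A cells, 28.2 and 24.6 CPM in WT cells, and 8.61 and 10.3 CPM in YFP cells. Zfp51, whose promoter is shown above, had 4.06 and 2.28 CPM in S280D cells, 0.562 and 0.483 CPM in S280A cells, 1.45 and 1.49 CPM in WT cells, and 0.176 and 0.664 CPM in YFP cells. For both genes each S280D and WT library lay above each S280A and YFP library. Zfp54 and Zfp52, the other named features of the run, are below the read minimum and gave 1.79 ± 0.53 (adjusted p = 0.0216) and 1.96 ± 0.56 (0.0179) in S280D against S280A. The other 2 tested features inside the run, which have no zinc finger name, were not called in any of the 6 comparisons. In S280D against S280A AABR07001899.1 gave 2.15 ± 0.88 (adjusted p = 0.0718), with only 105 exon reads over all libraries. RGD1565566, with 561 exon reads over all libraries, gave -0.75 ± 0.34 (0.102) there. Whether the named features differ from these 2 was not tested. Zfp945 and Zfp40, of which Zfp40 was chosen after its values were seen, lie beyond its end, at chr1:62314275-62316450 and chr1:62555187-62558033, and rose in S280D against S280A by 1.38 ± 0.28 (adjusted p = 0.00444) and 2.37 ± 0.46 (0.0038).

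**Figure D3:**
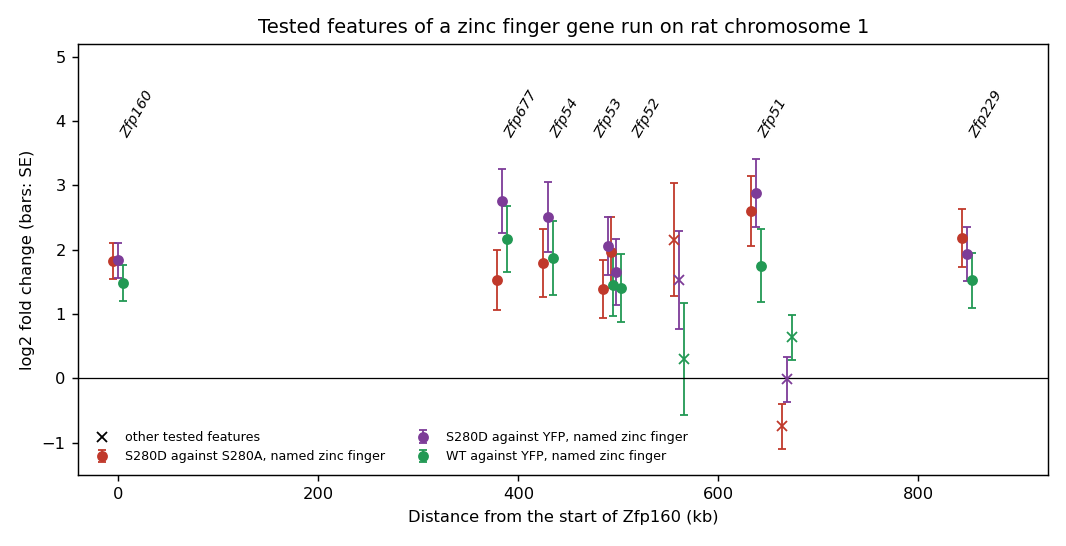
Log2 fold changes of the 9 tested features in the chromosome 1 run against the distance of their start from that of Zfp160 in kb, for S280D against S280A, S280D against YFP and WT against YFP. Circles are the 7 features with zinc finger names, crosses are 2 other tested features and bars are the SE. The 7 named features lie above 0 in all 3 comparisons.

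Of the other 7 runs, 3 had all of their members above 0 in S280D against S280A and 4 had medians below 0. The run at chr4:77495662-78258545 holds 9 members, of which 0 were called higher and 2 lower in S280D against S280A, with a median of -0.40. The 6 members at chr1:198682229-199330997 gave 0 higher and 3 lower calls there, with a median of -0.50. The 4 members at chr8:21380503-21617736 gave 2 higher and 0 lower calls, with a median of 0.95. The 4 at chr7:15069253-15790366, Zfp955a among them, gave 1 and 0 with a median of 1.24, and the 4 at chr1:87563974-88605697, Zfp260_2 among them, gave 2 and 0 with a median of 0.72. Of the 102 members with another named feature within 500 kb, 32.4% were called higher in S280D against S280A, against 43.6% of the 94 members without one. In S280D against YFP these shares were 28.4% and 36.2%. Over the 133 members they were 25.4% of 63 and 37.1% of 70 in S280D against S280A.

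Exon length moved with these results. Correlated across all genes tested, the log2 level of a library relative to the gene's mean followed exon length with a Spearman rho of 0.247 and 0.226 in S280D cells, -0.141 and -0.236 in S280A cells, 0.139 and 0.169 in WT cells, and -0.250 and -0.0607 in YFP cells. Within the members the rho was 0.163 and 0.143 in S280D cells, -0.169 and -0.137 in S280A cells, 0.152 and 0.159 in WT cells, and -0.180 and -0.140 in YFP cells. The sign thus separates S280D and WT from S280A and YFP. The members are longer than other genes, with a median of 2871 bases of exon against 2314 bases over all genes tested. They were therefore set beside all genes of like exon length in 3 classes of equal size over all genes, short up to 1739 bases, long from 3070 bases and middle between them.

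In S280D against S280A 30.6% of the 36 short members, 33.8% of the 74 middle and 44.2% of the 86 long members were called higher. Among all genes tested the shares were 11.3%, 19.3% and 33.2%. In S280D against YFP 16.7%, 29.7% and 40.7% of the members were called higher, against 9.23%, 15.6% and 26.4% of all genes in the same classes. In WT against YFP the shares were 16.7%, 17.6% and 33.7% of the members, against 7.06%, 11.3% and 18.2% of all genes. In S280A against WT 19.4%, 21.6% and 38.4% of the members were called lower, against 8.10%, 14% and 25.7% of all genes. The share of members was above that of all genes in each length class of these 4 comparisons, and both grew with length. With 50 reads in all 8 libraries the classes held 19, 49 and 65 members, of which 21.1%, 24.5% and 40% were called higher in S280D against S280A, against 12.4%, 19.1% and 35.2% of all such genes. In S280D against YFP the shares were 5.26%, 22.4% and 36.9%, against 9.94%, 15.4% and 27.8%, so the short members were then below the background.

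A second fit took an offset from a loess curve of the log ratio on exon length in each library. It shifted the median of all genes tested by -0.12 in S280D against S280A, -0.11 in S280D against YFP, 0.09 in S280A against WT and -0.09 in WT against YFP. Members called were then 64 higher and 37 lower in S280D against S280A, 56 higher and 28 lower in S280D against YFP, 23 higher and 50 lower in S280A against WT, and 46 higher and 13 lower in WT against YFP. The split between higher and lower members was thus less one-sided than without the offset in all 4. Over all genes 17.5% were called higher and 25.5% lower in S280D against S280A in this fit, 14.4% and 20.8% in S280D against YFP, 16.5% and 13.4% in S280A against WT, and 11.3% and 12.9% in WT against YFP, so the all-gene split turned round relative to the fit without an offset in all 4 and ran the other way from that of the 196 members. Of the 133 members with 50 reads in every library, 35 were called higher and 35 lower in S280D against S280A. That is 26.3% each, against 18.0% and 33.2% of the 9143 genes. In S280D against YFP there were 30 and 28 (22.6% and 21.1%), against 14.9% and 27.2%. In S280A against WT there were 23 and 29 (17.3% and 21.8%), against 21.8% and 14.5%. In WT against YFP there were 25 and 13 (18.8% and 9.77%), against 12.3% and 16.6%. Over the 196 the member median stayed above that of all genes, at 0.19 against -0.13 in S280D against S280A and 0.16 against -0.13 in S280D against YFP. Over the 133 both member medians were below 0, at -0.12 against -0.21 of the 9143 genes and -0.14 against -0.19. Of the 74 members higher in S280D against S280A 73 kept a positive value, and of the 48 higher in WT against YFP all 48 did.

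**Figure D4:**
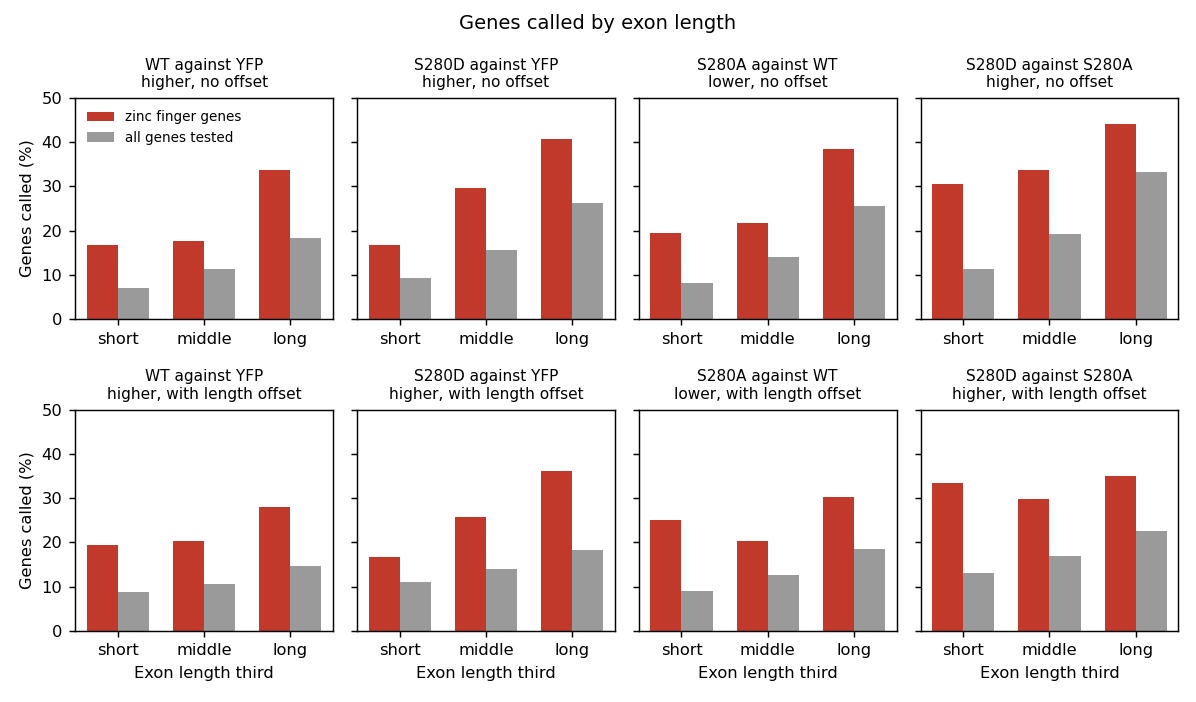
Percentage of genes called in the short, middle and long class of exon length, without an offset in the upper row and with an exon length offset in the lower row. Red bars are the 196 zinc finger genes and grey bars all genes tested, called higher except in S280A against WT, where the lower calls are shown, and the red bar is above the grey one in each class of each panel.

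Members also have lower levels than other genes, with a median of 3.93 CPM per kb against 7.74 CPM per kb. Among the 94 members in the lowest of 3 level classes, under 3.73 CPM per kb, 40.4% were called higher in S280D against S280A, against 19.4% of all genes in that class. Among the 18 members in the highest class 27.8% were called higher and 38.9% lower, against 17.6% and 36.1% of all genes. With 50 reads in all 8 libraries the lowest class held 34 members, of which 23.5% were called higher, against 27.6% of all such genes, so the excess in the lowest class was absent among them. In the middle class the shares were 35.8% of 81 members and 27.5% of all such genes.

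Promoter GC content also moved with the groups within the members, of which 157 have a sequence. The rho of the relative level with GC was -0.177 and -0.127 in S280D cells, 0.0195 and 0.165 in S280A cells, -0.131 and -0.105 in WT cells, and 0.141 and 0.159 in YFP cells. Over all genes tested, of which 9018 of the 12407 have a sequence, the rho was -0.00658 and 0.0162 in S280D cells. It was -0.00483 and -0.0155 in S280A cells, -0.0354 and -0.00710 in WT cells, and 0.00113 and 0.0715 in YFP cells. Those signs did not set S280D and WT apart from S280A and YFP. The part of GC content in the results was not tested.

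Intron reads are a second readout of the same genes. A median of 6.93% of a member's reads lay in introns, against 8.16% over all genes tested, and 16 members had a single exon. Intron reads made up 50% or more in 9 members. Of all reads of the members, introns held 21.8% and 23.0% in S280D libraries, 24.0% and 24.6% in S280A libraries, 22.1% and 22.7% in WT libraries, and 23.9% and 24.0% in YFP libraries. Over all genes the share was 14.2% to 15.8% in the S280D, S280A and WT libraries, but 11% and 11.9% in YFP. Zfp629, Zfp235, Zfp710 and Zfp84 held 55.2% to 68.2% of the members' intron reads, and without these 4 the members' intron share was 9.36% to 11.7%. Zfp235, Zfp710, Zfp438 and Zfp629 had the highest intron shares, 97.1%, 93.6%, 90.8% and 88.3%. None of the 4 passed on exon reads in any of the 6 comparisons, though with the exon length offset Zfp629 was lower in S280D than in S280A by 0.72 on the log2 scale (adjusted p = 0.00268). Whether the counting used strand is not stated, so reads of overlapping transcripts cannot be told apart from those of these introns.

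On intron reads 133 members were tested, which are not the 133 members with 50 exon reads everywhere, among 12988 genes. In S280D against S280A 8 members were called higher and 2 lower, with 4.54% of all genes called in either direction. Members called in S280D against YFP were 4 higher and 2 lower (5.35% of all genes), and in WT against YFP 1 higher and 1 lower (2.02%). In S280A against YFP, S280A against WT and S280D against WT 0 members were called, and 0.0154%, 0.0077% and 0% of all genes. The median intron log2 fold change was 0.23 over the members and 0.00 over all genes in S280D against S280A. Of the 48 members called higher on exon reads there and tested on introns, 34 had a positive intron value, with a median of 0.47. Of 42 such members in S280D against YFP, 37 were positive, and of 30 in WT against YFP, 26 were. Such counts of positive values were not made over all genes tested.

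Zfp386, chosen after its values were seen, changed in the same direction on both readouts, with an exon value of 1.27 and an intron value of 2.08 ± 0.35 (adjusted p = 0.0157) in S280D against S280A. It had 379 and 119 intron reads in S280D cells, 26 and 10 in S280A cells, 93 and 71 in WT cells, and 38 and 45 in YFP cells. Zfp367 had 46 and 10 intron reads in S280D cells, 0 and 0 in S280A cells, 7 and 13 in WT cells, and 4 and 7 in YFP cells. No fold is given for it on introns, since the S280A libraries are at 0.

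Zfp949 changed in opposite directions in exons and introns. Its exon level was 7.28 and 6.78 CPM in S280D cells, 1.33 and 1.61 CPM in S280A cells, 5.15 and 3.99 CPM in WT cells, and 2.34 and 2.71 CPM in YFP cells. Its intron level was 46.9 and 55.4 CPM, relative to all intron reads, in S280D cells, 81.1 and 147 in S280A cells, 56.9 and 77.2 in WT cells, and 190 and 256 in YFP cells. On exon reads S280D exceeded YFP by 1.47 ± 0.25 (adjusted p = 0.00266), whereas on intron reads it fell by 2.13 (SE 0.28, adjusted p = 0.00326). In WT against YFP the exon value was 0.86 ± 0.26 (adjusted p = 0.0407) and the intron value -1.74 ± 0.28 (0.00961). In S280D against S280A they were 2.26 ± 0.28 (0.00159) and -1.15 ± 0.28 (0.0356). The intron share of its reads was 55.6% and 60.6% in S280D cells, 90.4% and 92.6% in S280A cells, 65.4% and 76.7% in WT cells, and 90.9% and 93.5% in YFP cells. The gene spans chr8:96356087-96380770 in Rnor_6.0. Reads across exon junctions were few, from 0 to 7 per library.

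**Figure D5:**
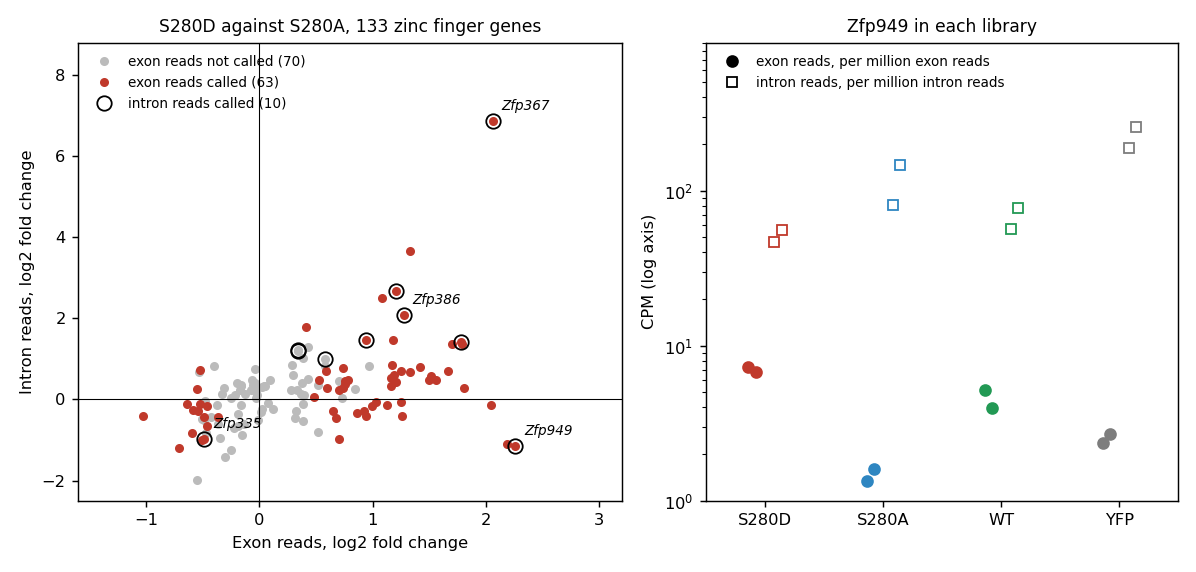
Left, log2 fold change of intron reads against that of exon reads in S280D against S280A for the 133 zinc finger genes tested on both, with red points for those called on exon reads and rings for the 10 called on intron reads. The value of Zfp367 depends on S280A libraries with 0 intron reads. Right, exon and intron levels of Zfp949 in each library on a log axis, S280D, S280A, WT and YFP from left to right: the exon level is higher in S280D than in YFP and the intron level is lower.

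Near-identical copies limit some members. At least 99% of exon reads were unique in 160 of the 196, but 0% were in Zfp647, 16.8% in Zfp707, 32.8% in Zfp260_2 and 45.6% in Zfp709l1, whose levels are uncertain. Zfp260_2 had 75.8 and 56.1 CPM in S280D cells, 30.2 and 25.0 CPM in S280A cells, 59.1 and 52.0 CPM in WT cells, and 24.4 and 34.5 CPM in YFP cells. It was called higher in S280D against S280A on all reads (1.26 ± 0.20, adjusted p = 0.00185) and on unique reads (1.52, 0.00128). With unique reads only, 77 members were called higher and 25 lower in that comparison (39.5% and 12.8%). Of the 11832 genes tested on unique reads 22.5% were called higher and 19.1% lower.

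Zinc finger genes with other names were read for comparison, and each list was described by its counts, beside the 21.3% higher and 18% lower of all genes tested in S280D against S280A. Of 35 other C2H2 factors tested, 15 rose and 2 fell in S280D against S280A, and of 17 Klf and Sp genes 8 rose and 1 fell. Of 35 Zbtb genes 13 rose and 3 fell, of 12 Zscan and Zkscan genes 5 rose and 1 fell, and of 17 Zc3h genes, which have CCCH fingers, 7 rose and 1 fell. The shares higher were thus 42.9%, 47.1%, 37.1%, 41.7% and 41.2%, each above that of all genes, and the shares lower were below it. No test was made of a list. The Zdhhc genes encode palmitoyl transferases and not DNA-binding proteins, and of 18 tested 6 rose and 2 fell (33.3% and 11.1%). Median log2 fold changes were 0.41, 0.40, 0.15, 0.26, 0.30 and 0.14 in the order given.

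The libraries held 14018785 to 39526013 exon reads, the largest being S280D replicate 1, and 1 read was worth 0.0242 to 0.0805 CPM. Ppara had 17911 and 17693 CPM in S280D cells, 17400 and 13736 CPM in S280A cells, 12382 and 24134 CPM in WT cells, and 74.4 and 59.5 CPM in YFP cells, and reads of the construct cannot be told apart from those of the cell's own gene. Of the defining muscle markers Acta2 and Tnnt2 were high in every library, at 6829 to 14127 CPM and 129 to 265 CPM, while Des stayed under 1 CPM, Myog was at most 0.820 CPM and Nkx2-5 was at or near 0. Fibroblast markers summed to 28133 to 30490 CPM in S280D, 37537 to 44925 in S280A, 26264 to 30181 in WT and 38576 to 42118 in YFP over 4 genes, so their sum was lower where zinc finger genes were higher. All 3 tested were called lower in S280D against S280A. Against YFP, 1 of the 3 lay above 0 in WT cells and 1 in S280D cells. Muscle markers, 10 genes, summed to 7121 to 8193 CPM in S280D, 10684 to 14382 in S280A, 7687 to 8210 in WT and 9867 to 11697 in YFP. Most of each muscle sum was Acta2, and the muscle markers did not move together. Of 8 tested in S280D against S280A, 4 lay above 0, with 1 called higher and 2 lower. The part of the fibroblast or muscle markers in the zinc finger results was not tested. Endothelial markers summed to at most 1.35 CPM over 3 genes, epithelial markers to at most 0.179 CPM over 3 genes, and immune markers to 19.5 to 25.5 CPM over 3 genes, nearly all of it Cd14, with Ptprc at 0 in every library.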

How the data were processed

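RNA sequencing measured 8 libraries of H9C2 cells, 2 for each of 4 constructs. The authors deposited 1 table of raw counts per gene (total exon, unique exon, intron and exon-exon reads), made from trimmed reads per the file headers. The genome build was Rnor_6.0 per the submitters' processing notes; no aligner or strand setting of the counting is named in the labels or headers. Replicates were not pooled. The second WT library is labelled 2 in its title and 3 in its description.

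The main test took total exon reads and edgeR 4.0.16, run in R 4.3.3 (TMM, filterByExpr, quasi-likelihood fit to all 8 libraries, 4 residual degrees of freedom, 6 comparisons, Benjamini-Hochberg adjustment over all genes tested). Alternatives included DESeq2 1.42.0, other filters and scalings, other read types, a loess length offset (span 0.5), the lane, the replicate number and leaving out each library. The fit was tested on simulated data. Python 3.11.15 and pandas 2.3.3 made the summaries. Fixed named genes were Giot1, up to 5 members with the largest change each way per comparison among called members of at least 1 CPM whose groups did not overlap, the extremes of level, intron share and unique share, and the known-role list. The members and lists were chosen with earlier results of these data known. Protein features such as finger number and KRAB boxes were not analysed here. Of the members, 189 names are a current RefSeq symbol or unique synonym. The correlation with promoter GC content over all genes is limited, because a sequence was matched for 9018 of the 12407 genes tested.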

Additional observations from a re-analysis of the deposited data

How the results depend on the processing

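With 2 libraries a group, a library left out leaves a lone sample that the fit assumes to vary like the other groups. Counts of members called, both directions together, then ran from 4 to 60 in WT against YFP, 0 to 1 in S280A against YFP, 35 to 80 in S280D against YFP, 0 to 75 in S280A against WT, 0 to 0 in S280D against WT and 33 to 101 in S280D against S280A. With lane as a covariate 0 members were called in WT against YFP and 28 in S280A against WT. Intron reads called 2 members in WT against YFP, 6 in S280D against YFP, 0 in S280A against WT and 10 in S280D against S280A. Exon-exon reads, an alternative chosen after seeing the data, called 5, 17, 10 and 20 in the same order. Only 133 intron-tested and 106 exon-exon-tested members entered these. On exon-exon reads 4.72% of the members rose in WT against YFP, against 8.38% of all genes tested. In S280A against WT 6.6% of the members fell, against 8.99%. In S280D against YFP 15.1% rose, against 13.015%, and in S280D against S280A 15.1% rose, against 14.2%. The excess of members in the share called was thus absent or small on these reads. In the opposite direction the members' share was below that of all genes in each of these comparisons. Median log2 fold changes of the members on exon-exon reads were 0.10 in WT against YFP and 0.25 in S280D against YFP. They were -0.18 in S280A against WT and 0.29 in S280D against S280A. Over all genes tested on these reads the medians were -0.02, -0.02, 0.04 and -0.03 in the same order. Members with 50 reads in all 8 libraries gave 32, 44 and 62 calls in WT against YFP, S280D against YFP and S280D against S280A. With no filter on low counts there were 3 calls in S280A against YFP and 1 in S280D against WT, and DESeq2 gave 1 in S280A against YFP. The cause of these shifts was not tested.

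The replicate numbers are not known to pair the samples. Deviations of same-numbered samples correlated at 0.205 between S280D and S280A, and at -0.173 between S280A and YFP. With the replicate number as a block 47 members were called in WT against YFP, 68 in S280D against YFP, 54 in S280A against WT and 94 in S280D against S280A. Of the 108 calls of named members, 102 were kept under that block, 106 with RLE size factors, 104 with DESeq2, 101 with the exon length offset and 107 with unique reads, but 62 with lane as a covariate. Leaving out 1 library kept from 57 (WT replicate 1) to 103 (S280A replicate 1), with 63 without S280A replicate 2 and 67 without S280D replicate 1. Exon-exon reads kept 19 of 53 and intron reads 3 of 73 with a value. Many of the named members were chosen as called genes with large changes in these same libraries. Calls kept in refits of the same exon reads were favoured by that choice and are no separate evidence.

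Several called exon values had the opposite sign on intron reads. Zfp777 gave 0.060 in WT against YFP, -0.53 in S280A against WT and 0.26 in S280D against S280A. Zfp292 gave 0.35 in S280A against WT and -0.14 in S280D against S280A. Zfp229 gave -0.035 in S280D against YFP and -1.10 in S280D against S280A. Zfp277 gave -0.066 in S280D against YFP, 0.12 in S280A against WT and -0.28 in S280D against S280A. Zfp260_2 gave 0.057 in S280A against WT and -0.41 in S280D against S280A. Zfp949 gave -1.74 in WT against YFP, -2.13 in S280D against YFP, 0.76 in S280A against WT and -1.15 in S280D against S280A. In S280A against WT, Zfp259 gave -0.14 and Zfp706 gave 0.57. Zfp148 gave -0.063 in S280D against S280A and Zfp281 gave -0.44 in WT against YFP. Of these, the adjusted p was under 0.05 in 3 intron values, all of Zfp949. On exon-exon reads Zfp644 gave -0.032 in S280D against YFP.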
